A study of Mus musculus with 4 samples.

Results

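The oxidative phosphorylation machinery of the inner mitochondrial membrane is built from subunits encoded by 2 genomes. Complexes I, III and IV pass electrons from NADH to oxygen and pump protons, and complex V uses the proton gradient to make ATP; complex II, which feeds electrons in from succinate, is wholly nuclear-encoded. Most subunits of complexes I, III, IV and V are transcribed in the nucleus and imported, and a small set of core subunits is transcribed from mitochondrial DNA. Several subunits of complex IV (cytochrome c oxidase) exist as paralogues with restricted expression, among them the heart and skeletal muscle forms Cox6a2, Cox7a1 and Cox8b and the oxygen-regulated form Cox4i2. In salivary glands the striated and granular ducts, which reabsorb salt from the primary saliva by active transport, are known for rows of mitochondria at their basal membrane.

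The nuclear-encoded subunits were taken by gene symbol: names that begin with Nduf followed by a, b, c, s or v and a digit, with Uqcr, with Cox4 to Cox8, or with Atp5, leaving out Ndufa4l2 and predicted pseudogenes. This gave 79 of the 31053 genes in the count tables, under 78 symbols. By function 35 belong to complex I, 8 to complex III, 19 to complex IV (Ndufa4, a subunit of this complex despite its name, included) and 17 to complex V. Cox7a2l, a factor for the assembly of respiratory supercomplexes, and Atp5s, a factor B protein rather than a core ATP synthase subunit, came in with their symbols. The symbol Atp5o stands for 2 gene models. ENSMUSG00000022956 is the gene itself, and ENSMUSG00000116933 is a model with 242055 bp of intron on chromosome 16 from 91684398 to 91926982 (GRCm38) that spans Donson, Cryzl1 and Atp5o. Reads could be split between the models, so values of the second, called here the Atp5o readthrough model, are uncertain.

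Single-cell RNA sequencing (10x Genomics) was run on cells of the submandibular gland of female C57BL6/J mice, harvested with the sublingual gland and enriched for stroma by depletion of EpCAM-expressing epithelial cells and Ter119-expressing red cells, followed by removal of dead cells. The 2 deligated libraries came from mice of 14 weeks whose main ducts had carried a metal clip for 14 days, with harvest 5 days after the clip was taken off. The 2 homeostatic libraries came from mice of 12 weeks without surgery, so no operated control was part of the comparison. How many mice stand behind a library is not stated, and p-values measure the spread between libraries, which may be technical. The deligated libraries were counted with Cell Ranger 6.0.1 and the homeostatic ones with 7.0.0, per the file headers, so that software version, age and group cannot be told apart; whether introns were counted is not stated.

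The libraries held 4725 and 8713 barcodes (deligated 1 and 2) and 12854 and 13266 (homeostatic 1 and 2), with 35662241 to 53898793 unique molecular identifiers (UMIs, 1 per captured RNA molecule) each. After filtering and doublet removal 33695 cells remained, from 4357 in deligated 1 to 10900 in homeostatic 2. Between 14 and 54 barcodes were shared by any pair of libraries, at most 0.482% of the smaller one. Cells were clustered without the subunit genes and without mitochondrially encoded genes, and classes were named from marker genes. Of 43 clusters, 8 with 2742 cells stayed unnamed. Despite the depletion, epithelial-like cells numbered 3600 and 3852 in the homeostatic libraries, against 51 and 154 in the deligated ones. Epithelial-like cells of the homeostatic libraries fell into 4 main groups. The first, with 1890 and 2105 cells, had Cox8b, Fxyd2 and Cox7a1 as its leading genes, Cox8b and Cox7a1 being subunits. It is called Fxyd2-led after Fxyd2, a regulator of the sodium pump that marks striated ducts. At a finer clustering (Leiden resolution 2.0) its clusters passed 7 and 4 granular-duct markers and 2 striated-duct markers each. The granular-duct clusters passed 2 striated-duct markers as well, so these markers do not settle its duct type. The second had the kallikrein markers of granular ducts (granular-duct-like, 992 and 1051 cells), the third was led by Ascl3, a transcription factor of ionocyte-type duct cells (Ascl3-led, 375 and 359 cells), and the fourth had secretory markers (acinar-like, 328 and 329 cells). Fxyd2 stood at 24370 and 24540 CPM (UMIs of a gene per 1000000 UMIs of the class) in the Fxyd2-led cells, Epcam at 104 and 103 CPM and Krt8 at 247 and 205 CPM. Ascl3 stood at 925 and 813 CPM in the Ascl3-led cells.

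In the duct groups a far larger share of the UMIs came from the subunits than in any other class. In the homeostatic libraries the 79 genes together gave 9.45% and 9.68% of the UMIs of Fxyd2-led cells, 9.73% and 9.87% of those of granular-duct-like cells and 7.69% and 8.04% of those of Ascl3-led cells. Mural-like cells, named from markers of the pericytes and smooth muscle around vessels, came next at 2.75% and 2.83%. NK/innate lymphoid-like cells gave 2.01% and 2.06%, T cell-like cells 1.89% and 1.94%, macrophage-like cells 1.68% and 1.83%, endothelial-like cells 1.63% and 1.68%, and fibroblast-like cells 1.35% and 1.30%. Acinar-like cells gave 0.593% and 0.620% and were the lowest of these only while all their UMIs were counted: with cells thinned to 1000 UMIs and shallower cells left out (300 and 294 acinar-like cells kept) their mean was 1.63%, above the 1.35% of fibroblast-like cells. Their deeper cluster, led by Dcpp1, gave 0.43% in each library, and the shallower one, led by A2ml1, gave 2.27% and 3.52%. The Fxyd2-led and granular-duct-like groups differed by less than 0.5 percentage points, and their order turned with thinned cells (means of 10.0% and 9.95%), at a finer clustering (Leiden resolution 2.0, 10.5% and 8.92%) and with the subunits allowed in the clustering (9.89% and 7.42%). The granular-duct-like class held 2 clusters: the one led by the kallikreins Klk1b16 and Klk1b22 gave 8.26% and 8.22%, below the Fxyd2-led cells, and the one led by Atp6v1c2 and Foxq1 gave 10.3% and 10.6%. Macrophage-like and endothelial-like values overlapped. Within the macrophage-like class a shallow cluster led by Aif1 gave 2.84% and 2.94% and a deeper one led by Nlrp1b gave 1.31% and 1.41%, and with thinned cells the class mean was 2.07%.

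Counted per cell rather than as a share, the duct groups did not stand apart as a set. Subunit UMIs averaged 181 and 182 per granular-duct-like cell (102.5 and 105 in its kallikrein-led and 236 and 240.5 in its Atp6v1c2-led cluster), 85.9 and 90.4 per Fxyd2-led cell and 100.4 and 88.9 per Ascl3-led cell. The averages were 137 and 139 in NK/innate lymphoid-like, 132 and 142 in mural-like, 106 and 95.7 in acinar-like and 65.3 and 66.1 in endothelial-like cells of the same libraries. The Fxyd2-led cells thus held fewer subunit UMIs than the deeper NK/innate lymphoid-like and mural-like cells.

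As a share of UMIs in the deligated libraries, mural-like cells (2.58% and 2.92%) were above and fibroblast-like cells (1.30% and 1.52%) below the macrophage-like (1.67% and 1.77%) and endothelial-like (1.57% and 1.78%) cells, whose values again overlapped. The few duct cells of deligated 2 gave 11.3% (76 Fxyd2-led cells) and 9.77% (52 granular-duct-like cells). Schwann-like, erythroid-like and B cell-like cells, with 20 to 66 cells in a library, ranged from 1.08% to 1.92%.

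**Figure D1:**
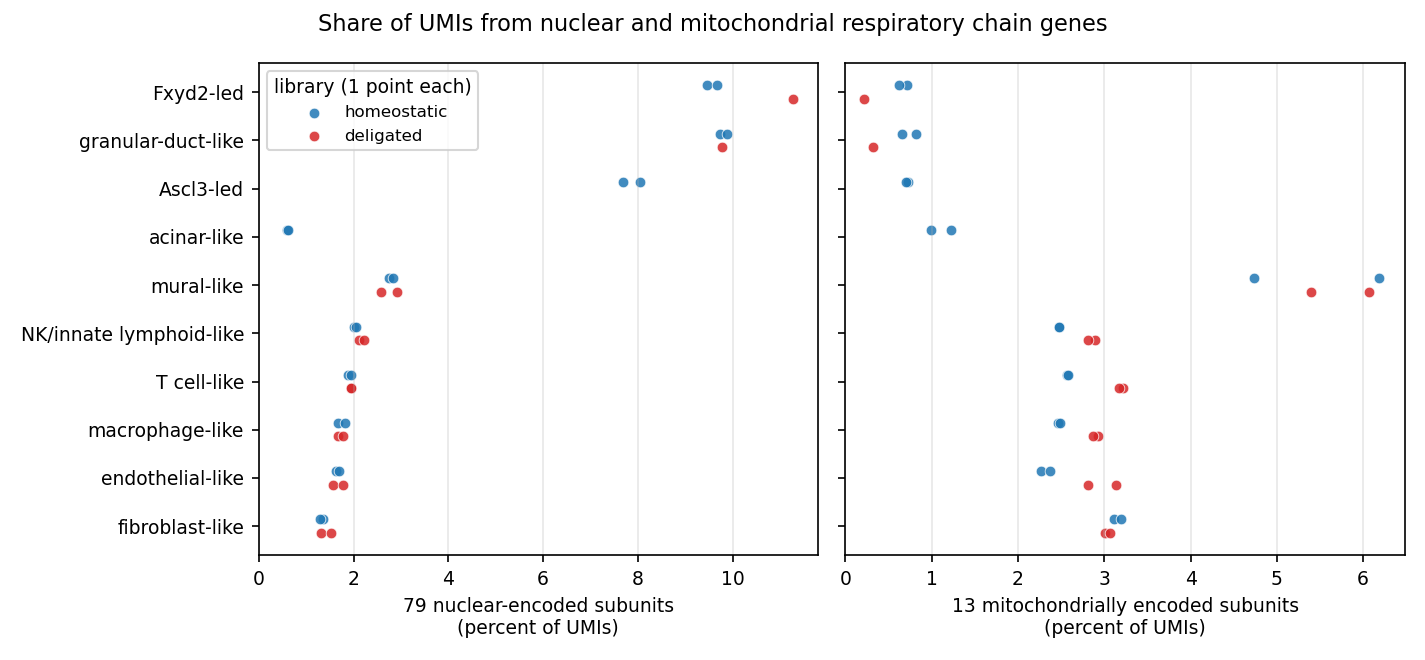
Share of UMIs from the 79 nuclear-encoded subunits (left, percent of all UMIs of the class) and from the 13 mitochondrially encoded subunits (right, percent) by cell class, 1 point per library, blue for homeostatic and red for deligated. The duct groups lie at 7.69% or above on the left and at 0.816% or below on the right, where mural-like cells lie highest.

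The division of the subunit RNA among the 4 complexes differed between classes. Complex I held 27.2% and 26.8% of the subunit UMIs of Fxyd2-led cells, against 34.3% and 33.9% in endothelial-like and 37.4% and 36.6% in fibroblast-like cells, although it has the most genes. Complex V held 32.1% and 32.0% in Fxyd2-led and 27.2% and 27.1% in endothelial-like cells. The share of complex I was thus lower, and that of complex V higher, in Fxyd2-led than in endothelial-like cells. Averaged over classes, the highest transcript of each complex was Cox8a in complex IV (1000 CPM), Atp5e, the epsilon subunit, in complex V (727 CPM), Uqcrh, the hinge protein, in complex III (564 CPM) and Ndufa13 in complex I (386 CPM). These are levels per UMI of a 3' tag assay, which does not scale with transcript length. The lowest of each complex were, in the same order, Cox8c, a testis form (0.00328 CPM), the Atp5o readthrough model (3.52 CPM), the core protein Uqcrc1 (84.6 CPM) and the iron-sulfur subunit Ndufs1 (39.5 CPM). Cox8c and the other testis form, Cox7b2, had 2 UMIs each over all libraries and were tested in no comparison.

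RNA from the mitochondrial genome did not follow the nuclear-encoded subunits. The 13 mitochondrially encoded subunits gave 0.715% and 0.624% of the UMIs of Fxyd2-led cells and 0.816% and 0.656% of those of granular-duct-like cells, against 2.27% and 2.38% in endothelial-like and 4.74% and 6.19% in mural-like cells. A minority of the duct cells held most of this RNA: 9.31% and 7.60% of Fxyd2-led cells had over 2% mitochondrially encoded UMIs and held 73.8% and 70.4% of those of the group, and the median cell had 0.0845% and 0.0912%. In granular-duct-like cells the median was 0.0555% and 0.0674%. For each mitochondrially encoded UMI, Fxyd2-led cells held 13.2 and 15.5 nuclear-encoded subunit UMIs, and endothelial-like cells held 0.721 and 0.709. In Fxyd2-led cells 46.7% and 44.3% of barcodes had no mitochondrially encoded UMI at all, against 0.114% and 0.202% of endothelial-like barcodes. Other measures moved with this difference. The median depth was 778 and 789 UMIs in Fxyd2-led cells and 3610 and 3598 in endothelial-like cells, and Malat1, a nuclear RNA, stood at 1022 and 1020 CPM against 22824 and 26702 CPM. The part of depth or RNA quality in the low mitochondrial share was not tested. An unnamed cluster of like depth (790 and 812 UMIs, led by Rbp7 and Grik1) had a median mitochondrial share of 3.21% and 3.26%. It had 2.66% and 2.81% of its UMIs from the nuclear-encoded subunits. With thinned cells the Fxyd2-led mean of these subunits stood at 10.0% rather than 9.56%, from the 511 and 572 cells of the group that had 1000 UMIs or more.

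Nearly every subunit was higher in the duct groups than in the non-epithelial classes. Sums of UMI counts per library and class were compared within the homeostatic libraries by edgeR's quasi-likelihood test, each epithelial group against the mean of 6 non-epithelial classes (endothelial-like, fibroblast-like, mural-like, macrophage-like, NK/innate lymphoid-like and T cell-like), with the library as a block and Benjamini-Hochberg adjustment over 13344 genes. Of the 77 subunits tested, 72 were higher and 1 lower in Fxyd2-led cells at an adjusted p under 0.05, where 29.5% of all genes were called higher and 36.1% lower. The median log2 fold change of the subunits was 2.75, beside -0.40 for all genes. In granular-duct-like cells 72 were higher and 1 lower (30.4% and 35.8% of all genes), with a median of 2.77 beside -0.43. In Ascl3-led cells 74 were higher and 1 lower (20.2% and 29.3% of all genes), with a median of 2.04 beside -0.68. The lower member was the Atp5o readthrough model in all 3. The classes of a library share its suspension and its free RNA, and with 2 libraries these p-values measure only the spread between them.

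By complex, all 35 complex I subunits and all 8 complex III subunits were higher in Fxyd2-led cells, with medians of 2.52 and 3.02 on the log2 scale. In complex IV 14 of 17 were higher (median 2.91), and in complex V 15 of 17 (median 2.86). The 4 that did not pass were Cox4i2, Cox6a2, Cox6b2 and Atp5s (log2 fold change 0.46, SE 0.26, edgeR quasi-likelihood test with Benjamini-Hochberg adjusted p = 0.116). Among the genes with the largest differences, Uqcrfs1, the Rieske iron-sulfur protein of complex III, stood at 883 and 887 CPM in Fxyd2-led cells and at 78.7 and 81.7 CPM in endothelial-like cells. Its log2 fold change against the 6 classes was 3.56 (SE 0.068). Atp5g1, which encodes a copy of the c subunit in the rotor of complex V, stood at 2336 and 2358 CPM against 191 and 199 CPM (log2 fold change 3.48). Ndufc1, an accessory subunit of complex I, stood at 1333 and 1417 CPM against 154 and 179 CPM (3.43, SE 0.062). None of these values overlapped between the 2 kinds of cell. In granular-duct-like cells Cox7b, a small subunit of complex IV, was among the 5 largest as well, at 2289 and 2364 CPM against 193 and 210 CPM in endothelial-like cells (log2 fold change 3.43). Cox7a2l rose less than most, by 1.73 in Fxyd2-led, 1.66 in granular-duct-like and 1.47 in Ascl3-led cells, and Cox6a1 rose by 1.75 in Fxyd2-led cells.

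**Figure D2:**
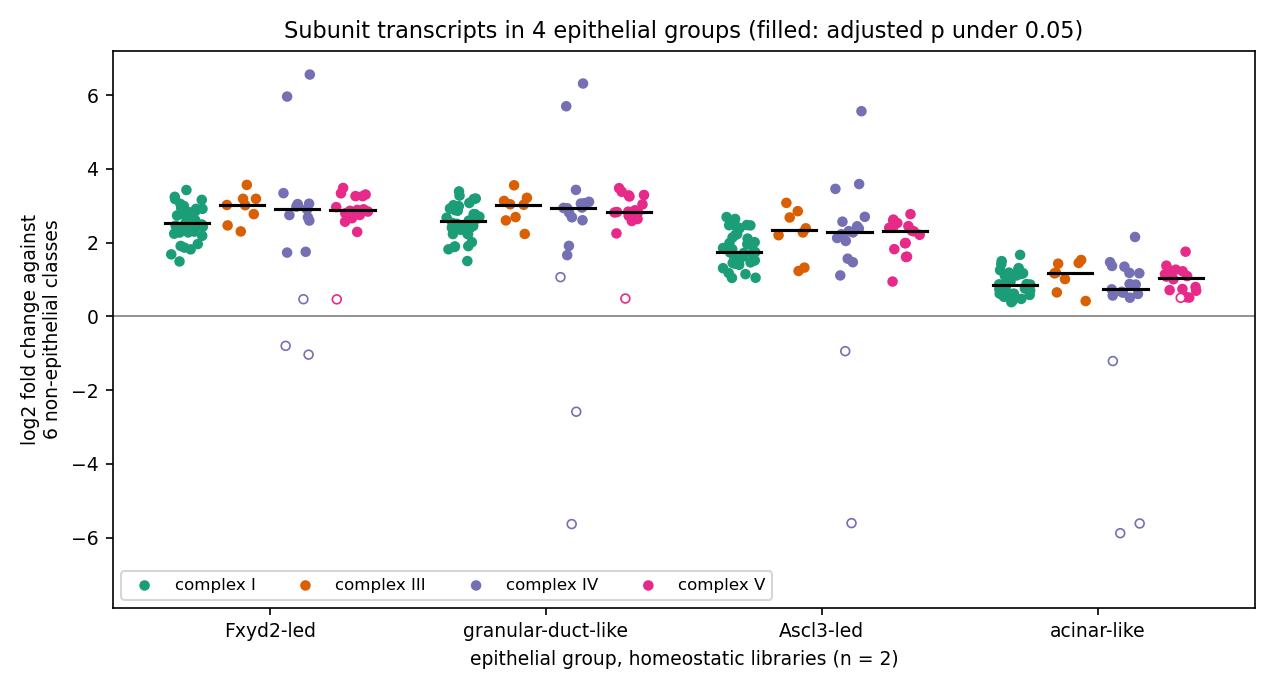
Log2 fold change of each subunit in 4 epithelial groups against 6 non-epithelial classes (vertical axis), homeostatic libraries (n = 2), 1 point per gene, coloured by complex, filled where the adjusted p is under 0.05, with a bar at the median of each complex. The Atp5o readthrough model is left out. Cox8b and Cox7a1, at 6.56 and 5.96, stand above the other subunits in Fxyd2-led cells.

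The duct groups differed among themselves in level and in isoforms. Between granular-duct-like and Fxyd2-led cells no subunit was called (0 of 77 by edgeR's quasi-likelihood test, where 0.704% of all genes were called higher and 0.472% lower); 3 subunits had an unadjusted p under 0.05, and with DESeq2's size factors or with thinned cells 1 was lower in granular-duct-like cells. The largest of these differences was in Cox7a1 (log2 fold change -0.26, adjusted p = 0.0635 by edgeR's quasi-likelihood test). Ascl3-led cells had 68 subunits lower and 1 higher than Fxyd2-led cells (9.12% and 2.93% of all genes), with a median log2 fold change of -0.68 beside -0.26 for all genes. With library totals alone 46 subunits were lower and 2 higher, and the median of all genes was 0.02. Uqcrc2, a core protein of complex III, fell by 1.24, and Cox4i1, the common form of subunit 4, fell by 1.18. Cox8a fell by 0.37 only. These sizes carry composition scaling, and library totals alone move this contrast upward, as given for Uqcr10 below. Uqcr10 and Uqcrb, small subunits of complex III, ranked among the 5 largest in Ascl3-led cells against the non-epithelial classes (3.08 and 2.85). Set directly against Fxyd2-led cells, Uqcr10 in Ascl3-led cells had a log2 fold change of -0.11 (edgeR quasi-likelihood test with Benjamini-Hochberg adjusted p = 0.578), which turned to 0.25 with library totals alone (adjusted p = 0.0427 by edgeR), where its levels were 2152 and 2271 against 1748 and 1966 CPM.

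In acinar-like cells the direction depended on how the sums were scaled. Saliva proteins dominated these cells: 16 gland products fixed as a list stood at 653723 and 652659 CPM together. With edgeR's scaling for composition, 72 of 77 subunits were higher than in the 6 non-epithelial classes and 0 lower (25.8% and 26.8% of all genes), with a median of 0.87 beside -0.23 for all genes. With library totals alone 0 were higher and 73 lower (4.86% and 77.9% of all genes), and the medians were -1.72 and -2.73. The 5 largest with composition scaling were Cox8b (2.15), Atp5g1 (1.75), the complex I subunit Ndufb9 (1.67), the complex III subunit Uqcr11 (1.53) and the complex I subunit Ndufb2 (1.5), and each turned negative without it (-0.42, -0.83, -0.92, -1.06 and -1.09). Set against Fxyd2-led cells, acinar-like cells had 72 subunits lower and 1 higher (21% and 25.1% of all genes), with a median of -1.81. Without composition scaling 72 subunits were higher and 1 lower in Fxyd2-led cells (23.1% and 44.6% of all genes; median 2.33) and in granular-duct-like cells (24.3% and 43.9%; median 2.38), and 73 were higher and 1 lower in Ascl3-led cells (19.5% and 30.5%; median 1.99). Gland products took 100551 and 117208 CPM in Fxyd2-led, 82109 and 87439 CPM in granular-duct-like and 79793 and 63289 CPM in Ascl3-led cells.

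Other genes of mitochondrial metabolism were counted in the same comparison, from lists chosen like the subunits. Complex II and cytochrome c had 5 of 5 genes higher in Fxyd2-led cells (median 3.0), in granular-duct-like cells (3.03) and in Ascl3-led cells (1.91). The tricarboxylic acid cycle had 13 of 13 higher in Fxyd2-led cells (median 2.23) and in granular-duct-like cells (2.32), and 11 of 13 in Ascl3-led cells (1.12). Mitochondrial carriers, channels and uncoupling proteins had 8 of 8 higher in each duct group (medians 2.70, 2.78 and 2.11), among them Ckmt1, the mitochondrial creatine kinase (5.93 in Fxyd2-led cells). Assembly factors of the complexes, which act in building them but stay out of the finished complex, changed less: 36 of 40 were higher and 2 lower in Fxyd2-led cells (median 1.42) and 20 higher and 2 lower in Ascl3-led cells (0.74). Ribosomal protein genes, which are also short and abundant, had 77 higher and 0 lower in Fxyd2-led cells with a median of 0.86, and 68 higher and 2 lower with a median of 0.44 with library totals alone. The 13 mitochondrially encoded subunits went the other way in Fxyd2-led and granular-duct-like cells, 0 higher and 13 lower (medians -1.73 and -1.53), and both counts were the same with library totals alone. In acinar-like cells their direction turned with scaling, from 13 higher and 0 lower (1.16) to 0 higher and 13 lower (-1.43) with library totals.

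Regulators of mitochondrial genes were mixed, with 6 of 13 higher and 4 lower in Fxyd2-led cells and a median of 0.02. The genes named here were picked from that list after their values were seen. Esrrg, a nuclear receptor that activates oxidative metabolism genes, stood at 73.9 and 61.5 CPM in Fxyd2-led cells and at 4.0 and 4.2 CPM in endothelial-like cells (log2 fold change 4.49). Ppargc1a, a coactivator of mitochondrial biogenesis, stood at 78.6 and 59.98 CPM against 3.8 and 3.0 CPM (4.42). Esrra and Tfam rose by 2.60 and 1.63, and Nrf1, which encodes nuclear respiratory factor 1, fell by 2.83.

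Muscle-type isoforms of complex IV were found in the duct cells. Cox8b (chromosome 7, 140898945 to 140900446, minus strand, GRCm38) stood at 212 and 258 CPM in Fxyd2-led and 195 and 210 CPM in granular-duct-like cells, at 26.5 and 45.3 CPM in Ascl3-led cells and at 2.04 and 2.96 CPM in acinar-like cells. Cox7a1 (chromosome 7, 30184144 to 30186078, plus strand) stood at 400 and 444 CPM in Fxyd2-led, 323 and 395 CPM in granular-duct-like and 390 and 431 CPM in Ascl3-led cells, and at 1.87 and 6.11 CPM in acinar-like cells. Within the granular-duct-like class Cox7a1 stood at 234 and 277 CPM in the kallikrein-led cluster and at 357 and 446 CPM in the Atp6v1c2-led one, and Cox8b at 160 and 180 CPM and at 208 and 224 CPM. So Cox7a1 was within the same range in Fxyd2-led, Ascl3-led and Atp6v1c2-led cells and lower in the kallikrein-led cluster, and Cox8b was lowest of the duct cells in the Ascl3-led group. The 250 bases before the RefSeq start of these genes and of their common counterparts Cox8a and Cox7a2 are shown because the paralogues of a pair differed so widely between cell types. They come from RefSeq on GRCm38.p6, are written 5′ to 3′ on the gene's strand, and have in capitals any match to the motifs searched. For Cox8b the region is chr7:140900447-140900696 (minus strand), for Cox7a1 chr7:30183921-30184170 (plus), for Cox8a chr19:7217617-7217866 (minus) and for Cox7a2 chr9:79759854-79760103 (minus).
Cox8b: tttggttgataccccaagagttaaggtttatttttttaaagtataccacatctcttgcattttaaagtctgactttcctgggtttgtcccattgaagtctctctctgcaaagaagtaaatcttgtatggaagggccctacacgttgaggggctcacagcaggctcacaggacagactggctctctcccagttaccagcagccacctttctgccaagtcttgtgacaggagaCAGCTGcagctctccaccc
Cox7a1: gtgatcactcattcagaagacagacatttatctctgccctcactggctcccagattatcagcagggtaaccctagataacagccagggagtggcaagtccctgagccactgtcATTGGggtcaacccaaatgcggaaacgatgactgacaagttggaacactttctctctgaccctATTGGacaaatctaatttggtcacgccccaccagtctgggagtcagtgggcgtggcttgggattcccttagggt
Cox8a: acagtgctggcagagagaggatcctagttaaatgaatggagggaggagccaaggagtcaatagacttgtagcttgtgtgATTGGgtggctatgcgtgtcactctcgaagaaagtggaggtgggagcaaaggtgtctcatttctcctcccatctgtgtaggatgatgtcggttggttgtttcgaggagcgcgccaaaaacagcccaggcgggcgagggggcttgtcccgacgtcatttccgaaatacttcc
Cox7a2: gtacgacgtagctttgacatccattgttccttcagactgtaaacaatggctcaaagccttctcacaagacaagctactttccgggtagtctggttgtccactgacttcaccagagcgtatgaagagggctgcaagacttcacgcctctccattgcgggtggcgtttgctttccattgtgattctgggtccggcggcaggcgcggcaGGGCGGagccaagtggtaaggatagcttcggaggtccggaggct
The capitals mark CAGCTG, an E-box letter string, 19 bases before the start of Cox8b, CCAAT on the opposite strand (written ATTGG) 137 and 74 bases before the start of Cox7a1 and 171 before that of Cox8a, and GGGCGG, a GC-box letter string, 44 bases before the start of Cox7a2.

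A promoter was at hand for 63 of the 78 symbols, and the letter strings were searched on both strands in the same window. CCAAT was in 42.9% of the 63 and in 37.5% of 27025 promoters of all genes, GGGCGG in 34.9% against 35.4%, CAGCTG in 9.52% against 14.7%, and TATAAA in 9.52% against 14.3%. GCGCNTGCG, from the letters that nuclear respiratory factor 1 is known to bind, was in 22.2% of the subunit promoters (14 genes, among them Atp5k, Ndufa8 and Cox6a1) against 5.88% of all. CCGGAAG, an ETS factor string, was in 17.5% against 7.83%, AAGGTCA, an estrogen-related receptor string, in 7.94% against 4.70%, and AAGATGGC, a YY1 string, in 1.59% against 1.83%. The median GC content was 54.8% against 52.4%. A match describes letters in a window and does not show a bound site.

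Against the 6 non-epithelial classes Cox8b was higher by 6.56 in Fxyd2-led cells (SE 0.12, edgeR quasi-likelihood test with Benjamini-Hochberg adjusted p = 1.17e-62), by 6.31 in granular-duct-like cells and by 3.46 in Ascl3-led cells (SE 0.39), on the log2 scale. Cox7a1 was higher by 5.96 (SE 0.088), 5.70 and 5.56 in the same order. Ascl3-led cells had less Cox8b than Fxyd2-led cells, by a log2 fold change of -3.10 (SE 0.20). Cox7a1 was slightly lower with composition scaling (-0.40), while its levels overlapped, at 390 and 431 CPM against 400 and 444 CPM. Even in the duct cells the common forms held most of the RNA. Cox8b made up 4.94% of the Cox8a and Cox8b UMIs of Fxyd2-led cells in homeostatic 1 (95% Clopper-Pearson interval 4.45% to 5.45%) and 5.86% in homeostatic 2 (5.37% to 6.37%), against 0.670% and 1.06% in Ascl3-led and 0.609% and 0.692% in endothelial-like cells. Cox7a1 made up 16.9% (15.7% to 18.1%) and 17.8% (16.7% to 18.9%) of the Cox7a1 and Cox7a2 UMIs of Fxyd2-led cells, 18.2% and 17.8% of those of Ascl3-led cells and 1.59% and 1.61% of those of endothelial-like cells. These intervals cover counting error only. The 76 Fxyd2-led cells of deligated 2 had Cox8b at 330 CPM and Cox7a1 at 742 CPM, and its 52 granular-duct-like cells had them at 409 and 462 CPM.

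Low values of both genes in other cells of the homeostatic libraries moved with free RNA of the gland. In endothelial-like cells Cox8b stood at 3.62 and 4.13 CPM in the homeostatic and at 0.83 and 1.12 CPM in the deligated libraries, and Cox7a1 at 6.46 and 6.85 against 1.31 and 1.12 CPM. The 16 gland products, which endothelial cells do not make, took 9606 and 10610 CPM of the same cells in the homeostatic and 95.3 and 221 CPM in the deligated libraries. In mural-like cells Cox7a1 stood at 18.2 and 25.5 CPM in the homeostatic and at 22.1 and 26.2 CPM in the deligated libraries, where gland products were at 145 and 1040 CPM.

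Cox6b2, the restricted form of subunit 6b known from testis, was found in Ascl3-led cells at 18.4 and 12.6 CPM, against 0.58 and 2.03 CPM in Fxyd2-led and 0.85 and 0.59 CPM in endothelial-like cells. It was the 1 subunit higher in Ascl3-led than in Fxyd2-led cells (log2 fold change 3.12, SE 0.82, edgeR quasi-likelihood test with Benjamini-Hochberg adjusted p = 0.00409). With thinned cells it did not pass the filter on low counts and was not tested. It was found in stroma too, at 18.8 and 10.1 CPM (homeostatic) and 14.3 and 21.7 CPM (deligated) in fibroblast-like cells and at 12.98 and 8.51 CPM (homeostatic) and 18.3 and 25.4 CPM (deligated) in mural-like cells. Its share of the Cox6b1 and Cox6b2 UMIs averaged 1.10% in Ascl3-led cells.

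The heart and muscle form Cox6a2 was found in a different place, the NK/innate lymphoid-like cells. Its values there were 108 and 136 CPM in the homeostatic and 116 and 173 CPM in the deligated libraries, and it held 35.3% and 41.9%, and 35.1% and 44.1%, of the Cox6a1 and Cox6a2 UMIs. Ncr1, an activating receptor that defines NK cells, stood at 459 and 449 CPM (homeostatic) and 475 and 476 CPM (deligated) in the same cells. Against the other non-epithelial classes Cox6a2 was higher by a log2 fold change of 7.24 in the homeostatic libraries (SE 0.16) and by 7.82 in the deligated ones. Within the class it was not even. In the deligated libraries a cluster led by Tnni1, Cox6a2 and Cd7 held it at 157 and 192 CPM, and a cluster led by Klrb1b and Krt83 had 0 and 2 UMIs. Most homeostatic cells of the class lay in another cluster, led by Dok6 and Oprm1, with 108 and 137 CPM, so the cells of the 2 groups were not the same clusters. Cox6a2 lies on chromosome 7 from 128205435 to 128206387 (minus strand) within the span of Itgad on the other strand, and the strand setting of the count is not stated. In Fxyd2-led, granular-duct-like, Ascl3-led and acinar-like cells it was at or under 1.75 CPM.

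Cox4i2, a form of subunit 4 known from lung and vessel walls, was the mark of mural-like cells. It stood at 585 and 577 CPM in the homeostatic and at 512 and 709 CPM in the deligated libraries, where Cox4i1 reached 823 and 726 CPM in the homeostatic ones. It made up 41.6% (95% Clopper-Pearson interval 38.6% to 44.6%) and 44.3% (40.7% to 47.9%) of the Cox4i1 and Cox4i2 UMIs in the homeostatic and 43.8% and 49.9% in the deligated libraries. In homeostatic endothelial-like cells it made up 0.533% and 0.501%. Its log2 fold change against the other non-epithelial classes was 9.49 (SE 0.16) in the homeostatic and 8.36 in the deligated libraries. Both kinds of mural cell had it. In the deligated libraries the cluster led by Colec11, Kcnj8 and Abcc9, genes of pericytes, had 528 and 894 CPM, and the cluster led by Tagln, Myh11 and Pln, genes of smooth muscle, had 506 and 592 CPM. A homeostatic cluster led by Pcp4 and Cnn1 had 36.4 and 57.9 CPM. It held 44 of the 160 and 31 of the 117 homeostatic mural-like cells and enters all homeostatic values of the class. At Leiden resolution 2.0 the cluster led by Pcp4 and Cnn1 had Krt14 among its leading genes. It passed 8 mural and 4 basal or myoepithelial markers there, so myoepithelial cells may be part of it.

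**Figure D3:**
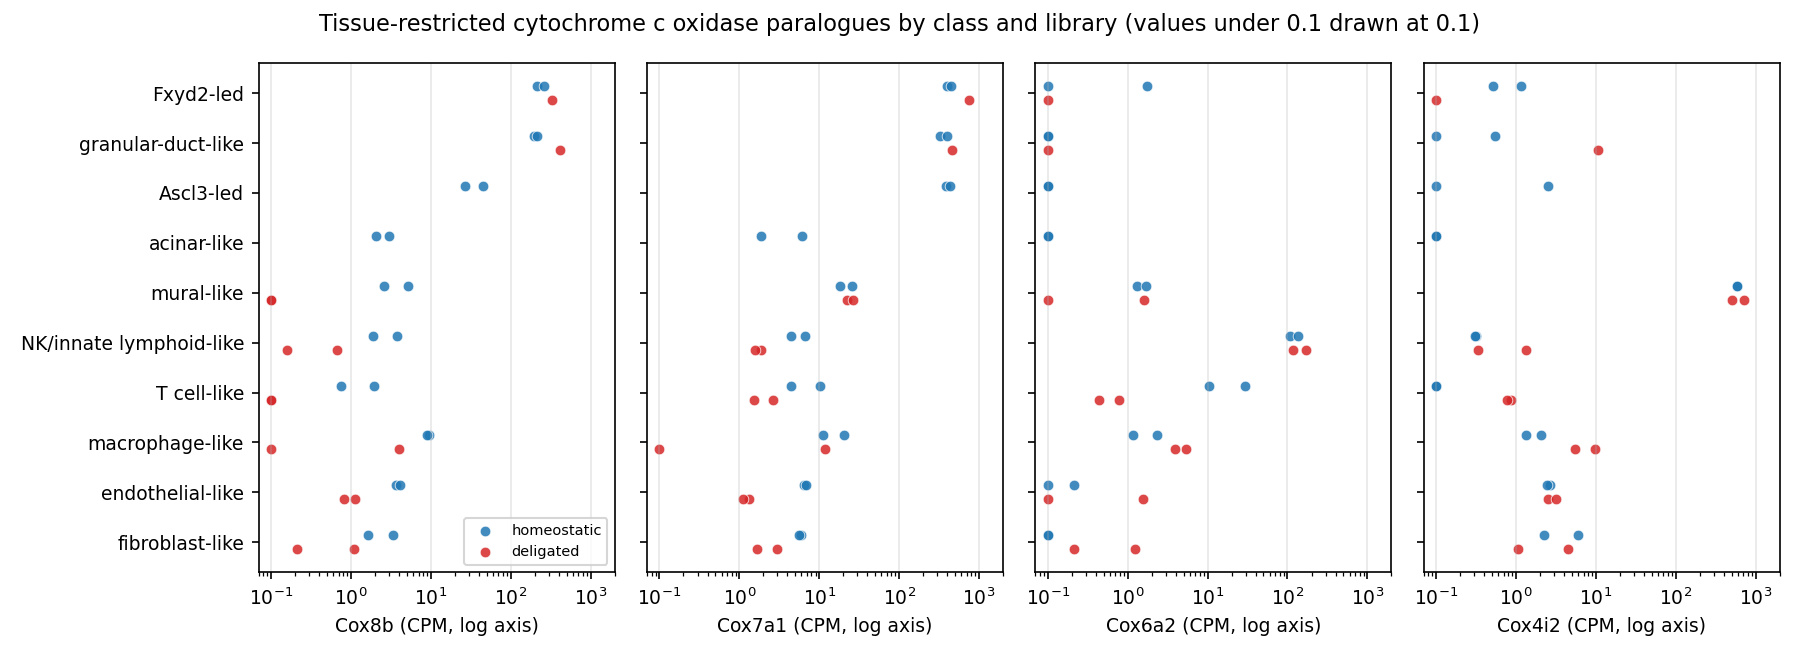
Levels of Cox8b, Cox7a1, Cox6a2 and Cox4i2 (horizontal axes, CPM, log scale, values under 0.1 drawn at 0.1) by cell class, 1 point per library, blue for homeostatic and red for deligated. Cox8b and Cox7a1 are highest in duct groups, Cox6a2 in NK/innate lymphoid-like cells at 108 to 173 CPM and Cox4i2 in mural-like cells at 512 to 709 CPM.

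Each non-epithelial class was compared with the mean of the other 5 in the same homeostatic fit, and most subunits were higher in mural-like and lower in fibroblast-like cells. In mural-like cells 62 of 77 were higher and 2 lower (22.8% and 18.6% of all genes), with a median log2 fold change of 0.62. In fibroblast-like cells 2 were higher and 66 lower (32.7% and 26.4% of all genes), with a median of -0.69, and in endothelial-like cells 9 were higher and 45 lower (36.9% and 23.7%; median -0.28). In NK/innate lymphoid-like cells 37 were higher and 7 lower (34.2% and 25.1%). The deligated libraries, fitted on their own over 75 subunits, gave 49 higher and 3 lower in mural-like cells (29.1% and 24.3% of all genes) and 1 higher and 62 lower in fibroblast-like cells (35.5% and 30.2%). There endothelial-like cells had 4 higher and 54 lower (33.1% and 26.6%), and NK/innate lymphoid-like cells had 49 higher and 6 lower (34.6% and 27.4%). T cell-like cells had 25 higher and 10 lower there (24.5% and 26.5%), the other way from the homeostatic fit. The deligated fit left out macrophage-like cells (37 in deligated 1), so its reference was not the same. Ndufa8, an accessory subunit of complex I, was an exception in endothelial-like cells, where it was higher by 1.33 in the homeostatic and 1.09 in the deligated libraries. Cox8a was higher in mural-like cells by 1.24 and 1.04. With thinned cells the counts were 34 higher and 1 lower in mural-like cells, 20 higher and 7 lower in NK/innate lymphoid-like cells, 61 higher and 0 lower in macrophage-like cells and 4 higher and 11 lower in T cell-like cells. Counts for T cell-like cells (13 higher, 21 lower; 24% and 22.4% of all genes) and macrophage-like cells (36 higher, 4 lower; 30.2% and 25.5%) turned with library totals alone, to 20 and 18 and to 12 and 34. The median of all genes moved the same way, from -0.08 to -0.02 in T cell-like and from -0.05 to -0.37 in macrophage-like cells.

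Between the deligated and the homeostatic libraries 28 subunits were called in at least 1 of 6 classes, and 41 of the 51 calls were of a size under 1 on the log2 scale. Sums per library were fitted within each class with 50 or more cells in every library. In endothelial-like cells 3 of 76 subunits were higher and 4 lower in the deligated libraries (12.8% and 22.4% of all genes), with a median of -0.01 beside 0.00 for all genes. In fibroblast-like cells 6 of 75 were higher and 2 lower (8.15% and 17.2% of all genes; median 0.13). In NK/innate lymphoid-like cells 15 of 75 were higher and 5 lower (16.6% and 26.7%; median 0.12), and in T cell-like cells 12 of 73 were higher and 2 lower (13.3% and 21.3%; median 0.13). The T cell-like count was 5, all higher, with thinned cells, and 2, both higher, at Leiden resolution 2.0, where the class held 104 and 119 homeostatic cells rather than 225 and 245. In mural-like cells 0 of 74 were higher and 1 lower (1.2% and 6.83%; median -0.13), and this turned to 1 higher and 0 lower in 4 alternatives, where Ndufa3 was called and Ndufa4 was not. In each class the share of subunits called lower was below that of all genes.

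The cells of the groups also lay mostly in different clusters within a class. Of the deligated endothelial-like cells 1208 and 2331 were in a cluster led by Hlx, Rsad2 and Aplnr, while 2791 and 2746 of the homeostatic ones were in a cluster led by Gm20532. Of the deligated fibroblast-like cells 349 and 687 were in a cluster led by Cilp, Col1a1 and Spp1, and 264 and 259 of the homeostatic ones in a cluster led by Lsamp and Astn2. Mural-like cells were likewise divided, with the Colec11-led and Tagln-led clusters in the deligated libraries and clusters led by Grm7 and by Pcp4 in the homeostatic ones. A difference in the kinds of cell within a class and a change within cells cannot be told apart in these sums.

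Leaving out a library moved most of these counts by more than 1.5 times. These runs leave 1 library in a group, and the share of all genes called in them is not given here. The median log2 fold change of the subunits ranged from -0.04 to 0.03 in endothelial-like and from 0.08 to 0.22 in fibroblast-like cells. It ranged from 0.11 to 0.14 in NK/innate lymphoid-like and from 0.11 to 0.18 in T cell-like cells. The direction also turned with the handling of introns: all genes with at most 5 kb of intron had medians of 0.19 to 0.33 in these 4 classes and genes with over 20 kb had -0.21 to -0.41, and scaling on genes with at most 5 kb gave 1 subunit higher in each of them and 16 (endothelial-like), 5 (fibroblast-like), 23 (NK/innate lymphoid-like) and 11 (T cell-like) lower, where it set the median of all genes to -0.17, -0.26, -0.26 and -0.31. The subunits have a median of 5.06 kb of intron, against 9.62 kb for all genes, and 39 of them have at most 5 kb.

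Ndufa3, an accessory subunit of complex I, was higher in the deligated libraries in 4 classes. It stood at 149 and 163 CPM against 96.9 and 118 CPM in endothelial-like, 154 and 150 against 84.8 and 98.5 CPM in fibroblast-like, 276 and 278 against 150 and 199 CPM in NK/innate lymphoid-like, and 269 and 281 against 147 and 180 CPM in T cell-like cells (deligated first). The groups did not overlap in any of the 4 classes. The log2 fold changes were 0.56, 0.79, 0.72 and 0.89, with adjusted p of 0.014, 0.00319, 0.0027 and 0.000346 by edgeR's quasi-likelihood test with Benjamini-Hochberg adjustment. In NK/innate lymphoid-like and T cell-like cells it passed in every alternative run. The call was lost without homeostatic 1 in endothelial-like and fibroblast-like cells, and with the intron trend removed in endothelial-like cells (log2 fold change 0.32). The gene overlaps Tfpt on the other strand.

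Other complex I subunits went both ways. Ndufa1, an accessory subunit needed for assembly, rose by 0.48 in fibroblast-like, 0.38 in NK/innate lymphoid-like and 0.52 in T cell-like cells. Ndufv3, a subunit of the NADH-binding arm, rose by 0.43 in NK/innate lymphoid-like and 0.66 in T cell-like cells, and Ndufa2 rose by 0.44 in fibroblast-like cells. Ndufs4, which helps to hold the NADH-binding arm and has over 20 kb of intron, fell by 0.40 in endothelial-like, 0.49 in fibroblast-like and 0.30 in NK/innate lymphoid-like cells. It stood at 90.1 and 97.3 CPM in deligated against 130 and 120 CPM in homeostatic endothelial-like cells. The Ndufs4 call was lost in all 3 classes without either homeostatic library. With the intron trend removed its direction turned, to 0.14 in endothelial-like, 0.12 in fibroblast-like and 0.57 in NK/innate lymphoid-like cells (adjusted p = 0.23, 0.572 and 0.00108 by edgeR), and Ndufa1 did not pass in any of its 3 classes. Of 16 alternatives, Ndufa1 passed in 8 (fibroblast-like), 11 (NK/innate lymphoid-like) and 12 (T cell-like), Ndufv3 in 12 (NK/innate lymphoid-like) and 13 (T cell-like), Ndufa2 in 9 (fibroblast-like), and Ndufs4 in 13 (endothelial-like), 11 (fibroblast-like) and 11 (NK/innate lymphoid-like). Of these calls, that of Ndufv3 in T cell-like cells alone passed without homeostatic 1.

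In complexes III and V, Uqcrc1 rose by 0.50 in T cell-like, 0.45 in NK/innate lymphoid-like and 0.37 in endothelial-like cells, and Atp5k, the e subunit at the dimer interface of ATP synthase, rose by 0.64 in fibroblast-like, 0.60 in NK/innate lymphoid-like and 0.68 in T cell-like cells. Atp5k stood at 320 and 334 CPM in deligated against 199 and 250 CPM in homeostatic NK/innate lymphoid-like cells, without overlap. Atp5e rose in fibroblast-like, NK/innate lymphoid-like and T cell-like cells by 0.42, 0.27 and 0.32. Its call passed in 9, 10 and 7 of 16 alternatives, and was lost in all 3 classes without either homeostatic library, with either handling of introns (-0.064 to 0.153) and with library totals alone. The call of Atp5k passed in 12, 14 and 12 of 16 (fibroblast-like, NK/innate lymphoid-like, T cell-like), and that of Uqcrc1 in 6, 13 and 11 of 16 (T cell-like, NK/innate lymphoid-like, endothelial-like). With the intron trend removed neither Uqcrc1 nor Atp5k passed in any of these classes, and without homeostatic 1 Uqcrc1 passed in none. The Atp5o readthrough model had 0 UMIs in both deligated libraries and 556 UMIs in the homeostatic ones. Set against a floor of 3 counts over the group, it was at least 25.0-fold lower in endothelial-like, 60.7-fold in fibroblast-like, 94.7-fold in NK/innate lymphoid-like and 15.7-fold in T cell-like cells. The software version that separates the groups is the same split.

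In complex IV, Cox6c, a small structural subunit, rose by 0.41 in fibroblast-like, 0.33 in NK/innate lymphoid-like and 0.41 in T cell-like cells. The Cox6c call passed in 9, 13 and 8 of 16 alternatives in the same order, and was lost in all 3 classes without homeostatic 1 and with either handling of introns. Cox6a1 rose by 0.28 in endothelial-like cells, a call that passed in 6 of 16 alternatives and was lost without either homeostatic library. Ndufa4 was the 1 subunit called in mural-like cells, at 393 and 345 CPM in homeostatic and 242 and 253 CPM in deligated mural-like cells (log2 fold change -0.70, SE 0.18, edgeR quasi-likelihood test with Benjamini-Hochberg adjusted p = 0.0294). This call was lost without either deligated library, without homeostatic 1 and with the replicate block (adjusted p = 0.0569 by edgeR). It was also lost with the 25% mitochondrial limit, at Leiden resolution 2.0, with the subunits allowed in the clustering and with library totals alone, where Ndufa4 fell short (-0.47, -0.47, -0.45 and -0.58) and Ndufa3 was called higher instead (0.67, 0.74, 0.73 and 0.73). Cox8b and Cox7a1 were lower in deligated endothelial-like (-1.96 and -2.43) and NK/innate lymphoid-like cells (-3.01 and -1.68), where their homeostatic levels were at most 6.85 CPM and gland products moved the same way, from 9723 and 11408 CPM in homeostatic to 151 and 190 CPM in deligated NK/innate lymphoid-like cells. The part of free gland RNA in these 2 genes was not tested. Without homeostatic 2 the calls of Cox8b in both classes and of Cox7a1 in NK/innate lymphoid-like cells were lost.

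Cox6a2 was lower in deligated T cell-like cells, with 1 and 1 UMI (0.436 and 0.769 CPM) against 14 and 45 UMIs (10.4 and 29.2 CPM). The ratio of homeostatic to deligated CPM was 36.6 (95% counting interval 9.7 to 310), and the log2 fold change was -4.86 (SE 0.77). Different clusters made up the class in the 2 groups: clusters led by Cd8b1 and Cd8a and by Il17a and Cd163l1 in the deligated libraries, and mostly a cluster led by Themis in the homeostatic ones. Ncr1 in the same cells stood at 290 and 255 CPM in the homeostatic against 3.49 and 3.85 CPM in the deligated libraries, and Cd3e, which encodes a chain of the T cell receptor complex, at 356 and 374 against 850 and 684 CPM. At Leiden resolution 2.0 a cluster of 120 and 127 homeostatic cells, with 6 NK and 5 T cell markers, was named NK/innate lymphoid-like. The T cell-like class then held 104 and 119 homeostatic cells. Cox6a2 had a result in T cell-like cells in 14 of 16 alternatives. Neither thinned cells nor resolution 2.0 gave a lower call in this class. The part of NK-type cells within the homeostatic class was not tested.

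**Figure D4:**
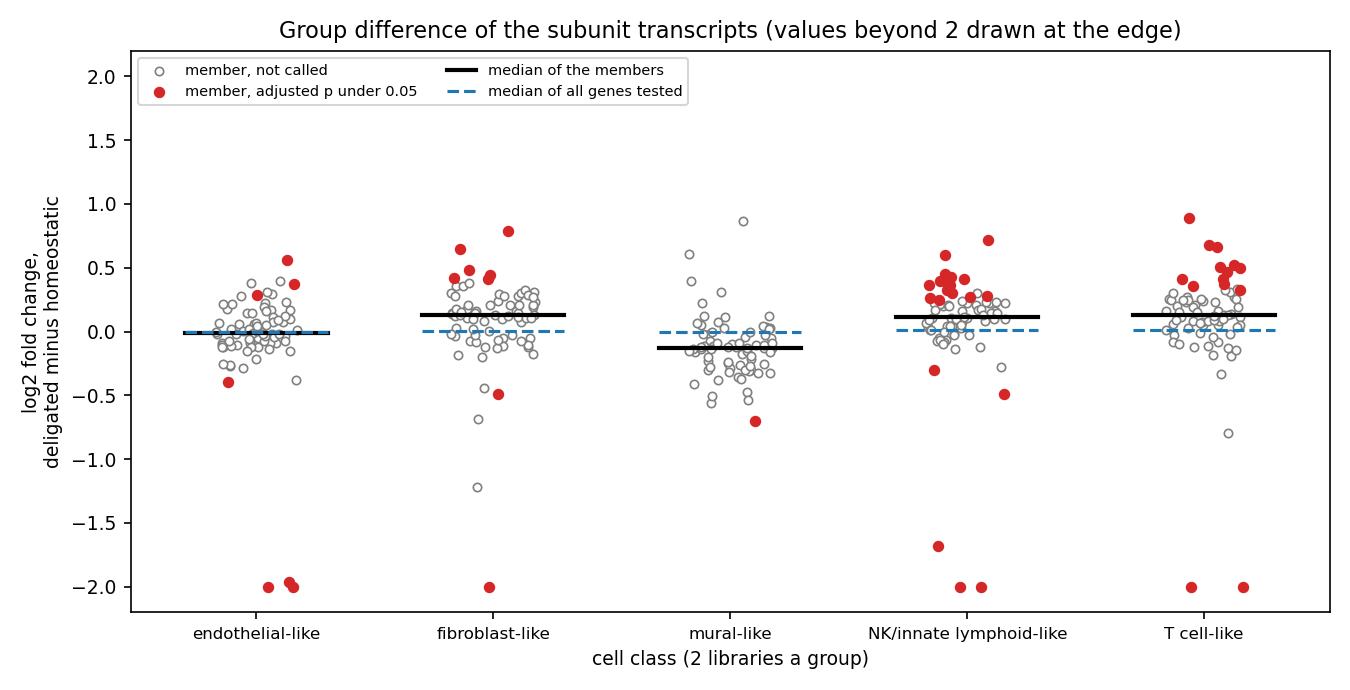
Log2 fold change of each subunit between deligated and homeostatic libraries (vertical axis, values beyond 2 drawn at the edge) in 5 non-epithelial classes, 1 point per gene, red where the adjusted p is under 0.05, with a black line at the median of the subunits and a dashed blue line at that of all genes tested. Most subunits lie within 0.5 of zero, and the largest count of calls, 15 higher and 5 lower, is in NK/innate lymphoid-like cells.

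In the epithelial-like class, 1 of 74 subunits was called between the groups (5.54% of all genes higher, 1.3% lower): Cox4i2 was higher (log2 fold change 4.97, SE 0.93), from 9 UMIs in deligated 1. The median of the subunits was -0.89 beside -0.03 for all genes. It was -0.015 with library totals alone, a change of scaling that moves the other genes in like measure. It was -0.38 without deligated 1 and -1.90 without deligated 2. In deligated 1, 195081 of the 249149 epithelial-like UMIs came from 17 basal cells, and the remaining cells were Fxyd2-led (19), granular-duct-like (8), Ascl3-led (5) and acinar-like (2). The subunits gave 2.96% of the UMIs in deligated 1 and 5.60% in deligated 2, against 4.14% and 4.73% in the homeostatic libraries. The count of calls changed with the library left out, and most UMIs of deligated 1 came from basal cells, so no direction for this class is drawn here.

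The other lists in the same group comparison gave these counts. The 13 mitochondrially encoded subunits were higher in 5 (endothelial-like), 6 (NK/innate lymphoid-like) and 12 cases (T cell-like) and lower in none, with medians of 0.40, 0.30 and 0.50, against 0 in mural-like and 1 in fibroblast-like cells. Ribosomal protein genes were higher in 29, 46, 26 and 50 cases in endothelial-like, fibroblast-like, NK/innate lymphoid-like and T cell-like cells and lower in none. Regulators of mitochondrial genes had 0 higher in each of these classes, and 4, 3, 6 and 1 lower. Of the assembly factors, 3 were higher and 10 lower in endothelial-like cells and 6 and 6 in NK/innate lymphoid-like cells.

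Whether the change between groups differed between classes was tested as an interaction against endothelial-like cells. No subunit differed in fibroblast-like (2.66% of all genes called; 0 at an unadjusted p under 0.05) or NK/innate lymphoid-like cells (6.87% called; 1 at an unadjusted p under 0.05) by edgeR's quasi-likelihood test. Cox7a1 differed in mural-like cells, by 2.58 (SE 0.57, adjusted p = 0.0219 by edgeR; 1.28% of all genes called), where it stood at like levels in both groups. Cox6a2 differed in T cell-like cells, by -7.16 (SE 1.31, adjusted p = 0.00117 by edgeR; 6.07% called). Both calls lapsed when a homeostatic library was left out: for Cox7a1 without homeostatic 1 (2.31, adjusted p = 0.761 by edgeR) or homeostatic 2 (2.65, adjusted p = 0.283), and for Cox6a2 without homeostatic 2 (-5.87, adjusted p = 0.0963) or deligated 2 (-4.55, adjusted p = 0.366). In epithelial-like cells 71 differed, 2 higher and 69 lower (17% of all genes called), but with library totals alone 4 differed, all higher, and without homeostatic 1 and 2 in turn 24 and 10 did.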

How the data were processed

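Count matrices from 10x Genomics libraries were used as the authors deposited them: whole-number UMI counts per gene and barcode (31053 genes, mm10, Ensembl identifiers), made with Cell Ranger 6.0.1 (deligated) and 7.0.0 (homeostatic), per the file headers, where the submitters' processing notes name version 6.0.1 and Seurat for all samples. Barcodes with at least 300 genes and at most 10% mitochondrial UMIs were kept, and predicted doublets (3.63% to 9.66% of cells in a library) were removed. Cells were clustered with leidenalg 0.10.2 at resolution 1.0 on 30 principal components of 3000 genes, leaving out the subunits and mitochondrially encoded genes, and classes were named from fixed markers (Python 3.11.15, scikit-learn 1.9.0). UMI counts were summed per library and class and tested over all genes with edgeR 4.0.16 (R 4.3.3, TMM scaling, quasi-likelihood test, Benjamini-Hochberg adjustment, threshold 0.05), in classes with at least 50 cells in every library. DESeq2 1.42.0, another low-count filter, the replicate block, thinning to 1000 UMIs, 2 treatments of introns, other cell filters, other clusterings and leaving out each library were tried as alternatives. The tests were run on simulated counts as well, with an outcome that is not given here. Intron lengths and positions came from GENCODE M21 (GRCm38), matched for 99.6% of genes, and promoters from RefSeq (GRCm38.p6). The thinning left out 1.7%, 2.31%, 23.2% and 24.6% of cells (deligated 1 and 2, homeostatic 1 and 2).

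Members and gene lists were chosen with earlier results of these data known. Named genes are the complex IV paralogue pairs and Cox7a2l, the 3 lowest adjusted p in each direction per class, the 5 called in the most classes, the 5 largest called changes in each direction per epithelial group, and the highest and lowest member of each complex; any other named gene was chosen after its values were seen, among them Uqcrc2, Ndufa8, Cox6c and Atp5s.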

Additional observations from a re-analysis of the deposited data

Results flagged for a closer look

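The change between groups differed between epithelial-like and endothelial-like cells for 71 of the 77 subunits by the interaction test, 69 of them lower in epithelial-like cells. The value moved from 10 to 71 as each library was left out and was 4, all higher, with library totals alone.

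Cox7a1 had a change between groups in mural-like cells that exceeded that in endothelial-like cells by 2.58 on the log2 scale. Cox7a1 stood at 18.2 and 25.5 CPM in homeostatic and 22.1 and 26.2 CPM in deligated mural-like cells, and fell in endothelial-like cells. Cox6a2 had a change in T cell-like cells that differed from that in endothelial-like cells by -7.16. It rested on 14 and 45 UMIs in the homeostatic and 1 and 1 UMI in the deligated T cell-like cells, and on 4 against 27 UMIs in endothelial-like cells.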

How the results depend on the processing

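Counts of subunits called between groups moved by more than 1.5 times in these cases. In endothelial-like cells the count was 15 (1 higher, 14 lower) with the intron-length trend removed and 17 (1 higher, 16 lower) with scaling from genes of at most 5 kb of intron. In fibroblast-like cells it was 5 with the trend removed (1 higher, 4 lower), 5 (3 higher, 2 lower) with the replicate block, 2 with thinned cells and 4 without composition scaling. In mural-like cells it was 2 without a filter on low counts, 2 with short-intron scaling and 0 with the replicate block; in NK/innate lymphoid-like cells it was 11 with thinned cells. In T cell-like cells it was 8 with DESeq2's Wald test, 5 with thinned cells, 2 at Leiden resolution 2.0 and 9 without composition scaling. With a smaller move in number, the split turned with the trend removed to 5 higher and 17 lower in NK/innate lymphoid-like and 4 and 6 in T cell-like cells, and in mural-like cells to 1 higher with the 25% limit, at resolution 2.0, with members allowed in the clustering and without composition scaling. Leaving out each library gave 3 to 38 in endothelial-like, 0 to 72 in epithelial-like, 1 to 22 in fibroblast-like, 0 to 1 in mural-like, 5 to 39 in NK/innate lymphoid-like and 4 to 19 in T cell-like cells. A lone library of an arm was assumed to vary like the others. For the interaction tests the same gave 10 to 71 in epithelial-like, 0 to 2 in mural-like, 0 to 1 in NK/innate lymphoid-like and 0 to 1 in T cell-like cells, and 4 in epithelial-like cells without composition scaling.

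Medians of the subunits between groups turned negative with the trend removed and with short-intron scaling, to -0.085 and -0.14 in fibroblast-like, -0.080 and -0.16 in NK/innate lymphoid-like and -0.038 and -0.20 in T cell-like cells, and to -0.020 in T cell-like cells without composition scaling. Short-intron scaling and the lack of composition scaling move all genes in like measure, so those turns do not set the subunits apart from other genes. In endothelial-like cells, where the median was near zero, it turned to 0.03 without deligated 1 and without homeostatic 2, and to 0.005 without a filter and 0.001 with members allowed in the clustering. Ndufs4 turned to 0.12 in fibroblast-like cells with the trend removed. Over the genes named by the fixed rules, 349 values between groups kept direction and side of the threshold, 83 lost the threshold and 1 turned. This tally covers only part of the 51 calls. Atp5e, and Ndufs4 in endothelial-like and NK/innate lymphoid-like cells, are outside it. The cause was not tested.

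Against non-epithelial classes the counts of all 4 epithelial groups stayed within 1.5 times in 35 cases and turned in 1, acinar-like cells without composition scaling, at 73, all lower, with a median of -1.72 and with Atp5g1 at -0.83, Cox8b at -0.42, Ndufb2 at -1.09, Ndufb9 at -0.92 and Uqcr11 at -1.06. Of the contrasts added after seeing the data, granular-duct-like against Fxyd2-led cells gave 1 with DESeq2's size factors and 1 with thinned cells. Without composition scaling macrophage-like cells gave 46 and T cell-like cells 38, both with another majority direction, and the median of all genes moved the same way. With thinned cells the counts were 61 in macrophage-like, 35 in mural-like, 27 in NK/innate lymphoid-like and 15 in T cell-like cells.

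Group means of the summed share moved by more than 1 SD in these cases. With thinned cells they were 1.71% (endothelial-like, homeostatic), 1.96% (T cell-like, deligated), 2.07% (macrophage-like, homeostatic), 10.0% (Fxyd2-led), 9.95% (granular-duct-like) and 1.63% (acinar-like). With up to 25% mitochondrial UMIs they were 3.01% (mural-like, homeostatic), 8.79%, 10.1% and 0.630% (Fxyd2-led, granular-duct-like, acinar-like). At Leiden resolution 2.0 they were 2.91% (mural-like, homeostatic), 1.94% (T cell-like, deligated), 10.5%, 8.92% and 8.37% (Fxyd2-led, granular-duct-like, Ascl3-led). With members allowed in the clustering they were 2.89%, 1.96%, 9.89%, 7.42% and 8.45% in the same order, and 0.634% in acinar-like cells. Paralogue shares moved likewise: Cox8b in granular-duct-like cells to 4.98% (25% limit), 4.38% (resolution 2.0) and 3.84% (members allowed); Cox7a1 in Fxyd2-led cells to 18.3% (thinned), 16.2%, 18.2% and 16.6%, in Ascl3-led cells to 18.7%, 18.5% and 18.6%, and in granular-duct-like cells to 10.2% (members allowed); and Cox4i2 in mural-like cells to 47.6% (homeostatic) and 51.8% (deligated) with thinned cells, and to 46.2% and 46.4% in the homeostatic libraries at resolution 2.0 and with members allowed.

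Replicate numbers did not pair the libraries: deviations of same-numbered libraries correlated at -0.15 in endothelial-like, 0.13 in epithelial-like, -0.02 in fibroblast-like, -0.13 in mural-like, -0.04 in NK/innate lymphoid-like and -0.05 in T cell-like cells. The replicate block gave 11 calls (1 higher, 10 lower) in epithelial-like cells in place of 1. The crossed pairing gave 4 calls (1 higher, 3 lower) in mural-like cells. Thinning and the 25% limit left too few deligated epithelial-like cells for a group value. Cox7b2 and Cox8c had 2 UMIs each, and the part of depth in this was not tested.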

Other observations

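An unnamed cluster led by the T cell receptor gamma genes Trgv2 and Tcrg-C2, found in the deligated libraries and kept out of every comparison, held Cox6a2 at 2 UMIs among 155 cells in deligated 1 and at 75 UMIs among 521 cells in deligated 2 (2.05 and 27.0 CPM). Its summed subunit share was 1.99% and 2.09%.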
